A study of Mus musculus with 12 samples.

Results

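The clustered protocadherins were examined in the spinal cord of ApoE4 mice after contusion SCI. They were taken as every gene symbol of the deposited table that starts with PCDHA, PCDHB or PCDHG, without regard to its values. This gave 50 of the 13957 symbols listed, 50 of them above the lesion and 46 below. RNA was sequenced from 12 libraries in 4 groups of 3. All groups were male mice expressing human ApoE4, 4 months old at a motor-incomplete contusion at thoracic level 9, and their cord was collected on day 14. The groups labelled synj1+/+ had normal synj1 alleles and the groups labelled synj1+/- had 1 inactive allele, and each genotype was sampled just above (rostral to) and just below (caudal to) the lesion. Every group was injured, so the values describe injured ApoE4 cord, and sham or ApoE3 cord was not analysed here. The paper lists 3 injured ApoE4 mice per genotype for RNA sequencing, so the segments above and below probably came from the same mice. It does not say so outright, and the sample labels do not pair them.

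Clustered protocadherins are adhesion proteins of the neuronal surface that bind their own kind on other cells, and they are encoded in tandem as the alpha, beta and gamma clusters. Each alpha and gamma gene supplies a variable first exon with its own promoter, which is spliced to constant exons shared by the whole cluster, whereas each beta gene is a single exon. Neurons express the alternate isoforms in random combinations, by which sister neurites of a cell recognise and avoid each other. The C-type isoforms PCDHAC1, PCDHAC2, PCDHGC3, PCDHGC4 and PCDHGC5 are expressed more uniformly, and astrocytes also make gamma protocadherins.

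In the RefSeq annotation of GRCm38.p6, the build of the deposited files, the clusters lie one after the other on chromosome 18. The alpha cluster runs from 36930285 to 37188897 with 14 genes, the beta cluster from 37264998 to 37521419 with 22 genes and the gamma cluster from 37661775 to 37841873 with 22 genes. Values were listed for 12 alpha, 16 beta and 22 gamma genes above the lesion and for 10, 14 and 22 below. PCDHA1, PCDHA8, PCDHB1, PCDHB2, PCDHB4, PCDHB14, PCDHB19 and PCDHB21 were not analysed here. PCDHA2, PCDHA5, PCDHB13 and PCDHB16 had values above the lesion only. One member, PCDHGB8, is annotated in RefSeq as a transcribed pseudogene and the others as protein coding. The GENCODE annotation, in contrast, holds a protein coding model of PCDHGB8. In the GENCODE models, all 11 alpha members with a model shared 48.6% to 54.9% of their exon bases with another gene of the cluster. The 22 gamma members shared 13.4% to 45.5%, where the 13.4% is PCDHGB8 and the next lowest is PCDHGA12 at 41.7%. None of the 16 beta members shared more than 6.88%. The split of reads between alpha isoforms, or between gamma isoforms, is therefore less certain than that between beta genes, and its part in the values was not tested.

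The table gives 1 value per gene and group, pooled over the 3 libraries. It was read as FPKM (fragments scaled to transcript length and library size, upper quartile normalised) with 1 added, since the lowest listed value is exactly 1. No spread between mice can be computed from pooled values, so the differences below carry no error and no test, and a ratio was counted as large once it reached 1.5-fold. The table does not give the number of fragments behind a value, and it was not estimated here. SYNJ1 itself was listed above the lesion at 1905 in the group labelled synj1+/+ and at 2404 in the group labelled synj1+/-, and below the lesion at 1847 and 2593. The gene that carries the inactive allele was thus listed higher, by 0.34 and 0.49 on the log2 scale, in the groups labelled synj1+/-. The listed values therefore do not show the reduction that the labels name. Pooled values do not allow single libraries to be checked against their labels. What RNA the inactive allele still makes is not given in the sources used here. All genotype directions in the text follow the labels, which the SYNJ1 values do not bear out. APOE, the gene of apolipoprotein E, was listed at 767 and 549 above the lesion and at 477 and 564 below. The mice express human ApoE4 while reads were aligned to the mouse genome. How fully these values count the human transcript was not tested. SNAP25 of neurons at 5239 to 6929 and GFAP of astrocytes at 8485 to 12975 were abundant in every group, while only 2 of 6 oligodendrocyte markers had a value.

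PCDHGC4, which is required for the survival of cord interneurons, was the most abundant member in every group. It was listed at 85.3 in synj1+/+ and 87.3 in synj1+/- above the lesion, and at 115 and 99.5 below. PCDHGC3, an inhibitor of Wnt signaling through Axin1, came next at 42.7, 37.8, 33.7 and 34.7 in the same order of groups. PCDHGC5, which binds GABA-A receptors, was listed at 15.1 and 13.4 above the lesion and at 9.26 and 9.19 below. The values of these 3 isoforms, the last of the gamma cluster, did not overlap with each other, and they were the only members with a mean over 10.

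PCDHAC2, which spaces the axons of serotonergic neurons, stood apart from the rest of the alpha cluster at 8.96 and 9.41 above the lesion and 7.21 and 9.62 below. In synj1+/- below the lesion it exceeded PCDHGC5. PCDHAC1, the other alpha C-type isoform, was listed at only 2.26 to 2.97 over the 4 groups, within the range of the alternate isoforms. C-type identity alone thus did not mark a high level. The 10 alternate alpha isoforms had means from 2.25 to 3.43 with a median of 2.46. PCDHA4 (3.41 and 3.84 above the lesion, 2.58 and 3.89 below) and PCDHA12 (3.11 and 3.78, then 3.21 and 3.50) were at the top of that range. PCDHA2 (2.30 and 2.20 above) and PCDHA10 (2.12 to 2.37) were at the bottom.

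Beta members had means from 2.16 to 5.63 with a median of 2.89. PCDHB9 was listed at 5.22, 5.59, 5.48 and 6.23, PCDHB17 at 5.05, 4.80, 4.47 and 4.59, and PCDHB20 at 4.38, 3.90, 4.15 and 4.34. PCDHB6, at 1.84 to 2.38, and PCDHB16, at 1.94 to 2.38 above the lesion, were the lowest, next to PCDHB13 at 2.14 and 2.19. Alternate gamma isoforms were higher, with means from 2.31 to 8.90 and a median of 4.87. PCDHGB6, at 9.96, 9.75, 7.30 and 8.58, and PCDHGA11, at 10.2, 9.21, 7.31 and 8.44, led them, and PCDHGA1, at 1.88 to 2.68, and PCDHGB8, at 2.38 to 3.75, were the lowest. In all, 41 of the 50 members had a mean under 6, where the added 1 is a large part of the value and compresses ratios.

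**Figure D1:**
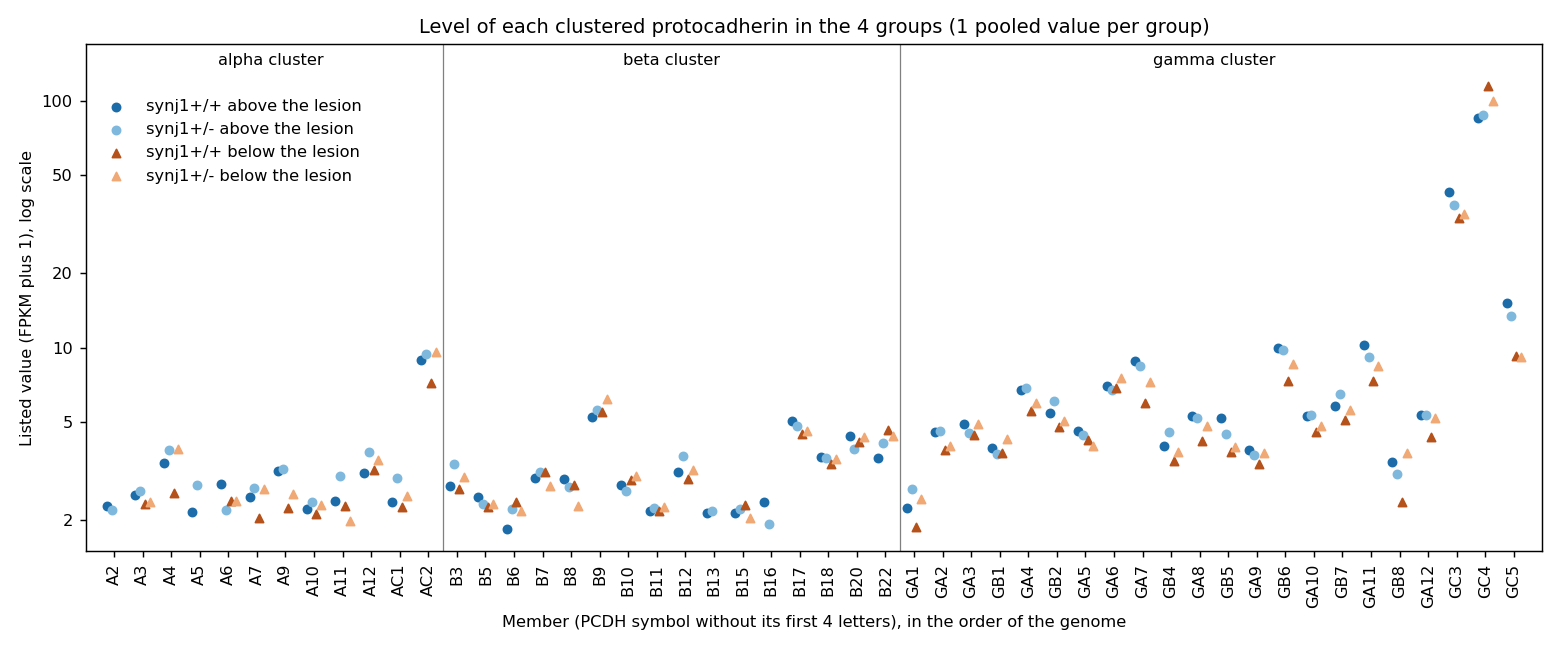
Listed value (FPKM plus 1, log scale) of the 50 members in genome order, with 1 pooled point per group (circles above the lesion, triangles below, dark for synj1+/+ and pale for synj1+/-). PCDHGC4 and PCDHGC3 stand above every other member in all 4 groups, and 41 members have a mean under 6.

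Level did not follow position within a cluster closely. Across genes, Spearman's rho between the place in the cluster and the mean level was 0.14 for 10 alternate alpha isoforms, 0.33 for 16 beta genes and 0.28 for 19 alternate gamma isoforms. The order of the members was much alike in the 4 groups. Over the 41 members other than C-type isoforms with values at both sites, rho between any pair of groups lay from 0.921 to 0.959, as a description across genes that share libraries, cluster and depth.

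Above the lesion, the clusters differed little between genotypes. As listed, none of the 50 members reached 1.5-fold in either direction. Of all 13647 genes listed at that site, 0.791% were past 1.5-fold higher in synj1+/- and 1.94% past it lower. Of the 2579 genes in the value range of the members other than the gamma C-type isoforms, 50 were past it higher and 114 lower. The log2 ratio of synj1+/- over synj1+/+ ran from -0.35 to 0.36 with a median of 0.02, against 0.00 for all genes. With the added 1 taken off, the FPKM ratios of the members ran from 0.668 (PCDHA6) to 1.53 (PCDHA5). With 0.1 added to the FPKM, 0 members reached 1.5-fold, against 1.21% higher and 2.64% lower of all genes. By any amount, 27 members were listed higher in synj1+/- and 23 lower, or 54.0% higher against a background of 49.0%.

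The clusters leaned different ways at this site. Of the alpha members, 10 of 12 were listed higher in synj1+/-, with a median log2 ratio of 0.10. Beta members were split, 9 of 16 higher with a median of 0.03. Of the gamma members only 8 of 22 were higher, with a median of -0.04. This is close to the 2579 genes in the value range of the members other than the gamma C-type isoforms, of which 44.4% were higher, with a median of -0.03. The largest ratios were those of PCDHA5 (2.15 in synj1+/+ and 2.77 in synj1+/-, log2 ratio 0.36), PCDHA11 (2.39 and 3.02, 0.34) and PCDHAC1 (0.32). In the other direction were PCDHA6 (2.80 and 2.20, -0.35), PCDHB16 (2.38 and 1.94, -0.30) and PCDHGB5 (5.20 and 4.47, -0.22). Most of these lie near a listed value of 2, where 1 unit of FPKM is a large step. Among the abundant isoforms PCDHGC3 and PCDHGC5 were lower in synj1+/-, by -0.18 and -0.17 on the log2 scale, and PCDHGC4 hardly differed at 0.03.

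Below the lesion, most members were listed higher in synj1+/-. By any amount, 37 of 46 members were higher and 9 lower, which is 80.4% against 52.8% of all 12338 genes listed at that site. The median log2 ratio was 0.12, against 0.01 for all genes, and single members ran from -0.28 to 0.65. Genes of a like level did not share this lean, since 47.4% of the 2131 genes in the value range of the members other than the gamma C-type isoforms were higher, with a median of -0.02. Members share exons, neighbours and libraries and are not independent of each other.

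The lean was found in the alpha and gamma clusters. Of the alpha members, 9 of 10 were higher in synj1+/- with a median of 0.14. Alternate gamma isoforms were higher in 18 of 19 cases with a median of 0.14, comprising 11 of 12 gamma A and 7 of 7 gamma B isoforms. PCDHGA5, at 4.23 in synj1+/+ and 4.01 in synj1+/-, was the exception. Beta members were again mixed, 9 of 14 higher with a median of 0.05.

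Few of these differences were large. Only 2 of 46 members were past 1.5-fold higher in synj1+/-, against a background of 1.16%, and none was past it lower, against 4.38%. Genes of a like level passed it more often than all genes. Of the 2131 in the value range of the members other than the gamma C-type isoforms, 58 were past it higher and 181 lower. PCDHGB8, a pseudogene in RefSeq, was listed below the lesion at 2.38 in synj1+/+ and 3.75 in synj1+/-, a ratio of 1.57. With the added 1 taken off, its FPKM ratio was 1.99. PCDHA4 was listed at 2.58 and 3.89, a ratio of 1.51, or 1.83 as FPKM. Both had a higher value above the lesion in synj1+/+ (3.43 and 3.41) than below it, and the value of synj1+/- below the lesion was the highest of the 4 groups.

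PCDHAC2 had the next largest ratio of listed values, with 7.21 in synj1+/+ and 9.62 in synj1+/- (log2 ratio 0.42). With the added 1 taken off its ratio was 1.39, under those of PCDHGA1 (1.62) and PCDHA7 (1.61). For PCDHAC2 too the synj1+/+ group below the lesion was the one that stood low, at 7.21 against 8.96 to 9.62 in the other groups. In the opposite direction were PCDHB8 (2.78 and 2.29, -0.28), PCDHGC4 (115 and 99.5, -0.21) and PCDHA11 (2.29 and 1.99, -0.20). PCDHGC3 (0.04) and PCDHGC5 (-0.01) hardly differed between genotypes below the lesion. Of the gamma C-type isoforms PCDHGC4 thus differed most, and it was lower in synj1+/- while the alternate isoforms of its cluster were nearly all higher.

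**Figure D2:**
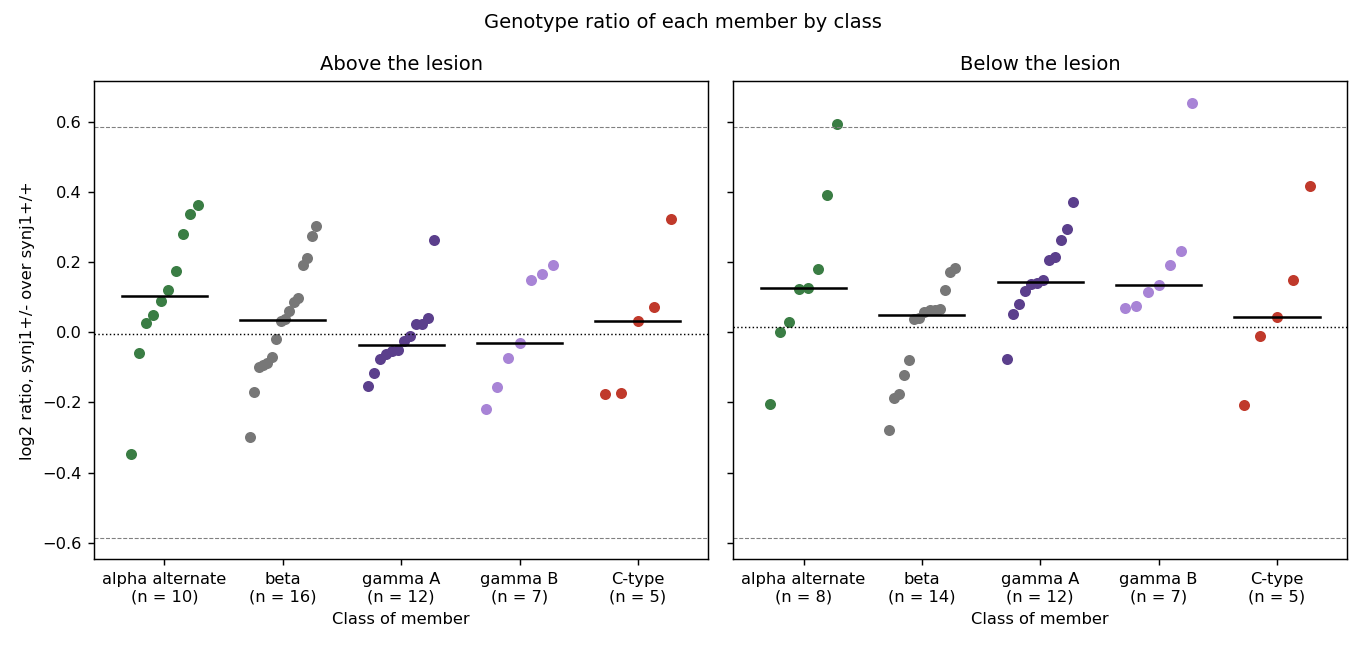
Log2 ratio of the listed value in synj1+/- over synj1+/+ for each member, by class, above (left) and below (right) the lesion. Bars are class medians, the dotted line is the median of all genes listed at the site and dashed lines mark 1.5-fold. Below the lesion 18 of 19 alternate gamma isoforms lie above 0, and PCDHGB8 and PCDHA4 are past 1.5-fold.

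For the 46 members with values at both sites, the genotype ratio was larger below the lesion than above it in 30, as it was in 53.9% of all 12023 genes with values at both sites. The median difference was 0.10 on the log2 scale over these members, 0.09 in alpha, -0.03 in beta and 0.20 in gamma, while it was 0.02 over all genes. In 19 members the value was higher in synj1+/- at both sites and in 3 it was lower at both. It was lower above and higher below in 18 members, 12 of them gamma, and the reverse in 6. Of all genes, 3762 were higher at both sites, 3503 lower at both, 2640 lower above and higher below, and 2118 the reverse. These are counts of pooled values, and the difference between sites was not tested.

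The summed levels show what these isoform differences amount to. For the 22 gamma members the sum of the listed values below the lesion was 244.9 in synj1+/+ and 241.6 in synj1+/-, a log2 ratio of -0.02. Without PCDHGC4 the same sums were 130.1 and 142, a log2 ratio of 0.13, and for the 19 alternate isoforms they were 87.1 and 98.2 (0.17). In the total as listed, the lower PCDHGC4 value in synj1+/- thus offset the higher values of the rest. Gamma isoforms share exons, and the part of the split of shared reads in these opposite differences was not tested. Above the lesion the alternate gamma isoforms summed to 106.7 and 105.3 (-0.02). The sum of the 10 alpha members was 33.4 and 36.1 above the lesion (0.11) and 28.7 and 33.8 below (0.24). Sums of the 14 beta members were nearly level, at 45.1, 46.5, 45.7 and 46.2 over the 4 groups. Over all 46 members the sums ran only from 319 to 328.

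Composition of the gamma cluster can be compared within each group, as shares of the summed FPKM with the added 1 taken off. These shares depend on how reads of the shared exons were split between isoforms, which was not tested. PCDHGC4 made up 37.0% of gamma FPKM in synj1+/+ and 38.9% in synj1+/- above the lesion, and 51.1% and 44.8% below. The share of PCDHGC3 was 18.3%, 16.6%, 14.7% and 15.3%, and that of PCDHGC5 was 6.20%, 5.60%, 3.70% and 3.73%. Both groups below the lesion therefore had more PCDHGC4 and less PCDHGC3 and PCDHGC5 than both groups above. Within the C-type isoforms, the ratio of PCDHGC4 to PCDHGC3 was 2.02 and 2.35 above the lesion and 3.48 and 2.92 below. The ratio of PCDHGC4 to PCDHGC5 was 5.97 and 6.95 above and 13.8 and 12.0 below. Gamma A isoforms together held 25.0% and 24.9% above the lesion, and 20.0% in synj1+/+ and 23.4% in synj1+/- below. Gamma B isoforms held 13.5%, 14.0%, 10.6% and 12.7%. The synj1+/+ group below the lesion was the lowest for both classes and the highest for PCDHGC4.

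**Figure D3:**
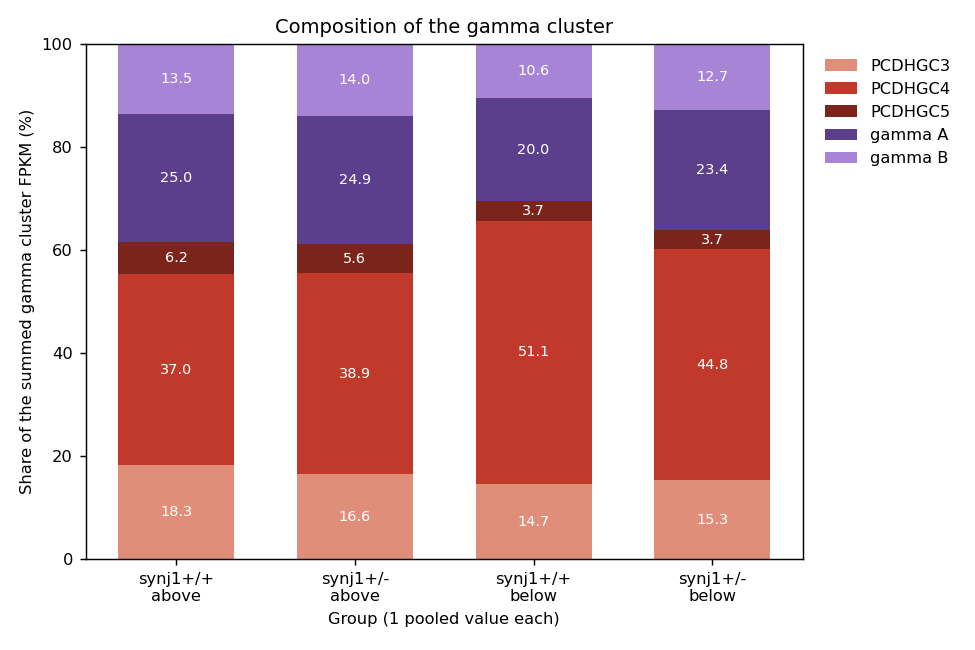
Share of the summed FPKM of the gamma cluster (%, listed value less 1) held by PCDHGC3, PCDHGC4, PCDHGC5, the 12 gamma A and the 7 gamma B isoforms in each group, 1 pooled value per group. PCDHGC4 takes 37.0% and 38.9% above the lesion and 51.1% and 44.8% below.

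Among the clusters themselves the shares moved little. Gamma held 79.1% to 81.6% of the FPKM of all members, beta 11.0% to 11.7% and alpha 6.84% to 9.32%. PCDHAC2 alone held 32.2% to 36.2% of the alpha FPKM. PCDHGC4 alone held 29.9% and 30.8% of the FPKM of all members above the lesion, and 41.7% and 35.7% below.

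The 2 sites were downsampled and normalised separately, so ratios between them are set beside the median of all genes and are descriptions only. They also use the same 4 pooled values as the genotype ratios and are not independent of them. In synj1+/+, 38 of 46 members were listed lower below the lesion than above, against 50.2% of all genes, and the median log2 ratio was -0.16 against 0.00. Alpha had 9 of 10 lower (median -0.18) and gamma 21 of 22 (-0.24), including 19 of 19 alternate isoforms with ratios from -0.57 to -0.03. Beta was split, with 8 of 14 lower and a median of -0.02. PCDHGC4 was the single gamma isoform listed higher below the lesion, at 85.3 above and 115 below (0.43). PCDHGC5, at 15.1 and 9.26 (-0.71), was the only member past 1.5-fold lower, against a background of 1.36%, and none was past it higher, against 3.24%. PCDHGA7 (8.84 and 5.95, -0.57) and PCDHGB8 (-0.53) followed.

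In synj1+/- the same lean was somewhat smaller. Here 31 of 46 members were listed lower below the lesion, against 44.5% of all genes, with a median of -0.12 against 0.02. Centred on the median of all genes, 34 of 46 were lower in synj1+/- and 38 of 46 in synj1+/+, with medians of -0.14 and -0.16. Gamma had 16 of 22 lower (-0.14), alpha 7 of 10 (-0.07) and beta 8 of 14 (-0.02). PCDHGC5 (13.4 above and 9.19 below, -0.55) was again low and PCDHGC4 (0.19) again high. PCDHA11, at 3.02 above and 1.99 below (-0.60), was the only member past 1.5-fold lower, against 0.832%, and none was past it higher, against 1.43%. PCDHGB8 was opposite in the genotypes, with -0.53 in synj1+/+ and 0.28 in synj1+/-.

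**Figure D4:**
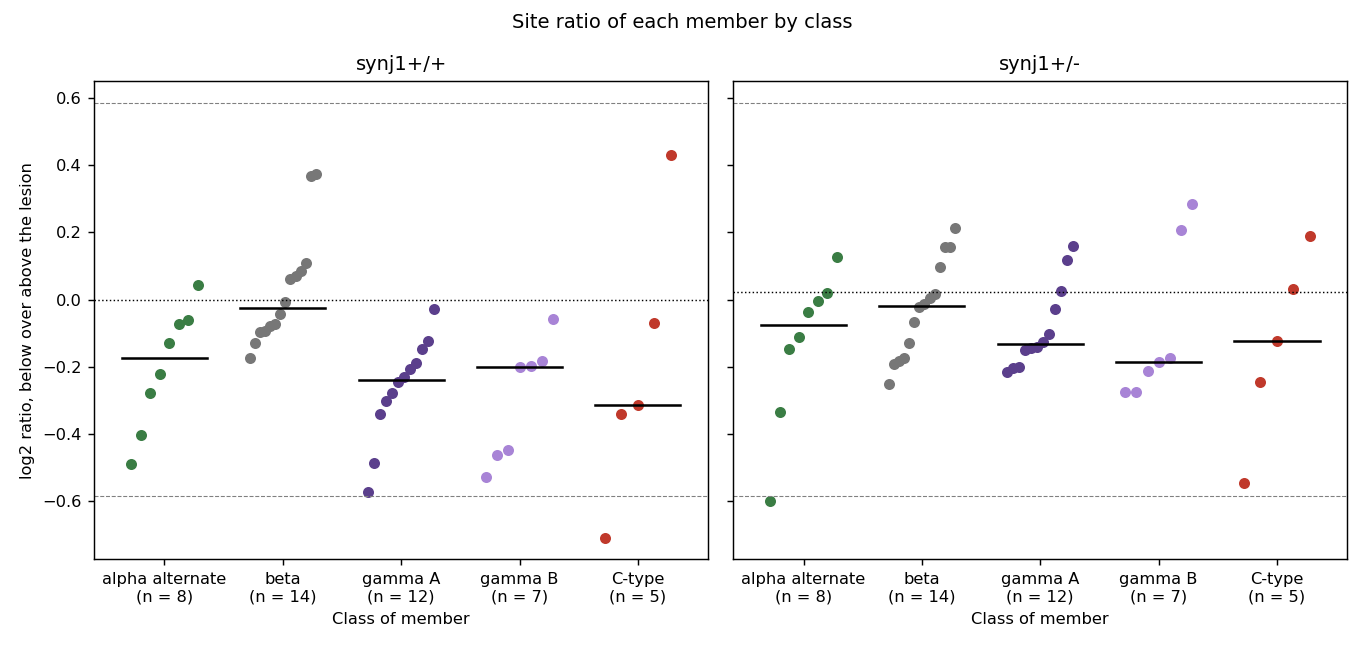
Log2 ratio of the listed value below over above the lesion for each member, by class, in synj1+/+ (left) and synj1+/- (right). Bars are class medians, the dotted line is the median of all genes and dashed lines mark 1.5-fold. In synj1+/+ all 19 alternate gamma isoforms lie below 0 while PCDHGC4 lies at 0.43.

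Markers of cell types also differed between genotypes. In bulk tissue, fewer cells of a type and less RNA per cell cannot be told apart. Of the neuron markers, 12 of 13 had a value above the lesion. There 7 were listed higher in synj1+/- and 5 lower, with a median log2 ratio of 0.09. Their sum was 10656 in synj1+/+ and 11981 in synj1+/-, of which SNAP25 alone made up 5239 and 6248. Below the lesion 11 of 13 had a value and all 11 were higher, from 0.11 to 0.54 with a median of 0.24. Their sum was 9103 and 11508, of which SNAP25 alone made up 5272 and 6929. SYT1, the calcium sensor of synaptic vesicle release, was listed at 332 and 481, and GAD1 of inhibitory neurons at 239 and 316. Below the lesion most members and all listed neuron markers were thus higher in synj1+/-, but PCDHGC4 was lower (-0.21) and the beta sum nearly level (0.02). Above the lesion the gamma members had a median of -0.04 and the neuron markers, which were of mixed sign, one of 0.09. Taking the median of the neuron markers off every ratio lowers all genes by the same amount. On that scale the members below the lesion had a median of -0.13 and all genes one of -0.23, and 7 of 46 members and 14.4% of all genes were higher in synj1+/-. Above the lesion 17 of 50 members were higher on that scale, against 28.02% of all genes. The part of neuron content in the members' ratios was not tested.

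Astrocyte, microglia and macrophage markers leaned the other way. Astrocyte markers had medians of -0.26 above and -0.18 below the lesion, with 1 of 7 higher at each site. Their sums were 18014 and 14910 above and 16161 and 12668 below. GFAP alone made up 12975 and 10584 of these above and 11117 and 8485 below. Microglia and macrophage markers had medians of -0.26 over 7 genes above and -0.41 over 5 genes below, and AIF1 (27.0 and 14.2) and CD68 (200.5 and 116) were past 1.5-fold lower below the lesion. Markers of oligodendrocyte precursors had medians of -0.12 and -0.04, and the 2 listed oligodendrocyte markers -0.12 and 0.04. Endothelial markers had medians of 0.07 above, with 4 of 4 higher, and -0.14 below, with 1 of 4 higher. Below the lesion only CDH5, at 16.1 and 10.6, was past 1.5-fold lower, while FLT1 was higher at 70.4 and 78.2.

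Fibroblast markers differed most. All 5 were lower in synj1+/- at both sites, with medians of -0.52 above and -2.91 below, and their sum below the lesion was 354 in synj1+/+ and 48.5 in synj1+/-. COL3A1, a fibrillar collagen, was listed at 5.26 and 1.73 above the lesion and at 69.9 and 7.91 below, LUM below it at 22.7 and 2.94 and COL1A1 at 47.2 and 6.29. The single listed skeletal muscle marker was at 3.53 and 2.93. The synj1+/+ group below the lesion, in which the sums of the alpha and of the alternate gamma isoforms were lowest, was thus also the group with the highest sum of fibroblast markers, and the part of this in the members' values was not tested. Between sites, all 5 fibroblast markers were higher below the lesion, with medians of 3.49 in synj1+/+ and 1.13 in synj1+/-. Of 11 neuron markers, 8 were lower below the lesion in synj1+/+ (median -0.08) and 2 in synj1+/- (median 0.14). The part of these differences in the members' site ratios was not tested.

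Genes that act on or with the clusters differed little between genotypes, and none of the 4 lists had a gene past 1.5-fold at either site. Of the cohesin and chromatin regulators, 11 of 20 listed above the lesion were higher in synj1+/- (median 0.02) and 6 of 15 below (-0.04). CTCF, which loops the cluster promoters to their distal enhancers, was listed at 180 in synj1+/+ and 165 in synj1+/- above and at 170 and 165 below. NIPBL, the loader of cohesin, was lower in synj1+/- at both sites, with 31.0 and 24.9 above (-0.32) and 30.8 and 25.0 below (-0.30). SMCHD1, a repressor of the clusters, was listed at 13.2 and 17.6 above (0.41) and 16.0 and 14.9 below (-0.10).

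Binding and signaling partners had 10 of 20 genes higher above the lesion (median 0.00) and 5 of 14 below (-0.11). PTK2B, a kinase that clustered protocadherins inhibit, had log2 ratios of -0.20 above and -0.42 below, and DSCAM, another self-avoidance receptor, was listed below at 46.2 and 60.4 (0.39). The proteases that cleave protocadherins, ADAM10 and the gamma-secretase subunits, had 3 of 7 higher above (-0.02) and 1 of 7 below (-0.08).

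The non-clustered protocadherins, which lie outside the clusters and do not share their constant exons, had 4 of 11 genes higher in synj1+/- above the lesion with a median of -0.08 and 5 of 9 higher below with a median of 0.13. PCDH7 was listed at 291 and 227 above (-0.36) and at 227 and 248 below (0.13), and PCDH1 at 167 and 170 above (0.03) and 128 and 164 below (0.36). Their medians thus had the same signs as those of the gamma cluster at both sites. In synj1+/+, 7 of 9 were lower below the lesion than above, with a median of -0.24, and in synj1+/- 5 of 9, with a median of -0.05.

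**Figure D5:**
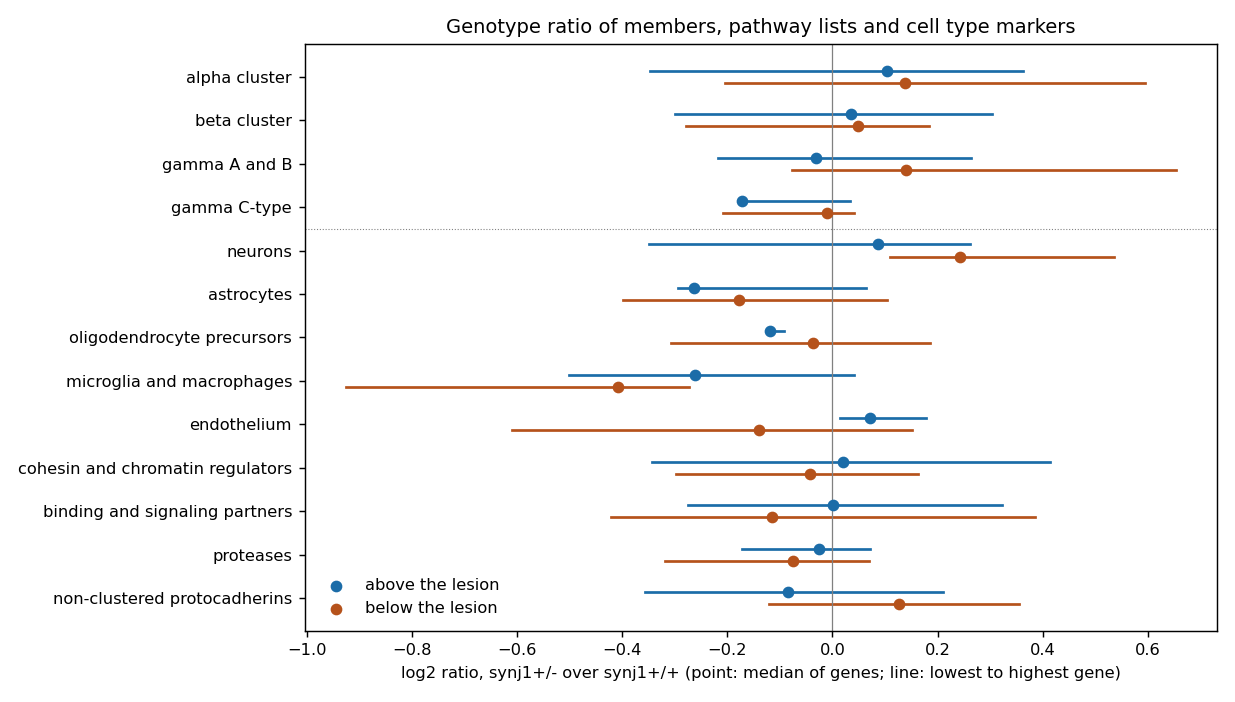
Median (point) and range (line) of the log2 ratio of synj1+/- over synj1+/+ for the clusters, cell type markers and pathway lists, above and below the lesion. The markers drawn are those of neurons, astrocytes, oligodendrocyte precursors, microglia and macrophages, and endothelium. Other marker lists, among them fibroblasts, are not drawn. Below the lesion the 11 neuron markers run from 0.11 to 0.54 with a median of 0.24, and the alpha and alternate gamma isoforms each have a median of 0.14.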

How the data were processed

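Total RNA of cord segments was sequenced with a TruSeq RNA v2 kit. The authors downsampled libraries to equal read counts within each site, aligned them with STAR 2.5.4b to GRCm38.p6 and ran Cuffdiff 1.3.0 (tool versions and build per the submitters' processing notes). The annotation used is not given in the sources used here. The deposited FPKM values are 1 per gene and group, upper quartile normalised, and appear to hold an added 1. The lowest value is exactly 1, in 19 rows, and the median value changed little from short to long transcripts. The table has 25985 rows, 13647 genes above and 12338 below the lesion. It gives no counts, so no counting interval was computed. Its columns of the authors' comparisons (fold changes, p-values, q-values and significance calls) and a shorter list of the same were not used.

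Log2 ratios of the listed values were computed in Python 3.11.15 with numpy 2.4.6 and pandas 2.3.3, for all genes, with a large ratio set at 1.5-fold. No test was run, because each group has 1 pooled value. For site ratios, 3 symbols listed more than once at a site were left out, leaving 12023. The counting of ratios past 1.5-fold was checked on values altered by a set factor without noise, which checks the arithmetic only. Members were chosen by symbol. The named genes were all C-type isoforms, the 3 highest and 2 lowest members of each cluster by mean, members past 1.5-fold or of the largest ratio at each site, members listed at 1 site, list genes past 1.5-fold (at most 3 per list and site) and CTCF, SMCHD1, NIPBL, SYNJ1 and APOE. PCDHA7, PCDHGA5, PCDHGA7, SNAP25, GFAP, SYT1, GAD1, PTK2B, DSCAM, PCDH1 and PCDH7 were added after their values were seen. One list gene past 1.5-fold, and the list that holds it, are not reported here. The members and the lists were chosen with earlier results of these data known. Alternatives were another offset, filter, fold, centring, set of genes and summary.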

Additional observations from a re-analysis of the deposited data

How the results depend on the processing

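Of 68 alternative values for 16 results, 45 stayed within 0.1 on the log2 scale for sums or 1.5 times for counts, and the others moved further. Counts of members past the fold changed with that fold. At a log2 ratio of 0.32 in place of 0.58 there were 4 members above the lesion (3 higher and 1 lower in synj1+/-, against 4.18% and 7.45% of all genes) and 5 below (all higher, against 8.06%). Between sites there were 13 in synj1+/+ (3 higher and 10 lower below the lesion, against 10.2% and 7.79%) and 3 in synj1+/- (all lower, against 4.53%). At 2-fold there were 0 below the lesion, 0 between sites in synj1+/+ and 0 in synj1+/-. With the added 1 taken off and 0.1 added instead, 4 members were past 1.5-fold below the lesion (all higher, against 1.88% of all genes), and between sites 5 in synj1+/+ (1 higher and 4 lower, against 4.02% and 1.95%) and 2 in synj1+/- (both lower, against 1.15%). PCDHA4 is near the threshold, and centring on all genes left 1 member past it below the lesion.

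Few members reach a mean of 10. With that filter 0 members were past 1.5-fold below the lesion and 0 between sites in synj1+/-, 1 of 3 was higher in synj1+/- above the lesion and 1 of 2 below, and 2 of 3 were lower below the lesion in each genotype. Centring on the neuron markers, chosen after seeing the data like the counts by any amount, lowers all genes alike and left 0 members past 1.5-fold below the lesion (0.267% of all genes past it higher), 7 higher there (14.4% of all genes) and 17 higher above (28.02%). The log2 ratio of the alpha sums below the lesion was 0.35 without the added 1. The median of the member ratios below the lesion was 0.14 for gamma and 0.042 for the C-type isoforms, against -0.02 and -0.11 for their sums, in which PCDHGC4 has the greatest weight. Other sums near 0 also changed sign, the gamma sum below the lesion to 0.0055 when scaled to the median of all genes and the C-type ratio above it from -0.034 to 0.033 as a median.

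No paired analysis was possible because the table holds 1 pooled value per group and no replicate columns. For the same reason leaving out each library was not run, and whether 1 mouse sets a value is unknown. The table gives no counts, and the counting error of the low members was not estimated.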
